A study of Canis lupus familiaris with 18 samples.

Results

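Wide *E2F1* regions were stretches of 2 kb or more on chromosomes 1 to 38, made by joining every *E2F1* *ChIP-seq* peak of 6 dogs that overlapped or touched another peak. A stretch was kept where at least 2 dogs had a peak in it. There were 1111 such regions, which is 0.217% of the 512222 merged *E2F1* regions and 1.09% of the 102084 regions with a peak in 2 or more dogs, called shared regions here. The regions were selected on their measured width and number of dogs, so all *E2F1* values are given as a description and carry no test. The *H3K27ac* lists did not enter the choice.

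The study profiled flash frozen pons, a part of the brainstem, from 6 male dogs aged 12 to 16 years. The 3 dogs called ancestral were heterozygous for a transposable element (TE) insertion in *GTF2I*, and so also carried the derived allele. The 3 dogs called derived were homozygous for the allele without the insertion. Each dog gave 1 *E2F1* and 1 *H3K27ac* peak list, called in that dog alone. Bulk tissue was used, so cell types cannot be told apart. The paper reports more noise than usual in its *E2F1* tracks. It also cautions that cross-correlation scores were low, so that some *E2F1* sites may be missed. Between 2 dogs, the base pairs under both *E2F1* lists were a fraction of 0.0358 to 0.112 of those under either list. No treatment was given to either genotype, as far as the labels say, and the *ChIP-seq* covered no younger dogs and no females. The defining markers of pons cell types were not checked, because no gene annotation of CanFam3.1, the build of the peak lists, was used here.

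*E2F1* is a DNA-binding transcription factor best known for switching on genes of the cell cycle and DNA replication, and it is held in check by the retinoblastoma protein. In differentiated neurons, which no longer divide, *E2F1* has been linked to neuronal death. Acetylation of lysine 27 on histone H3 (*H3K27ac*) marks active promoters and enhancers, where factor binding is frequent, and long unbroken stretches of the mark lie over strongly used regulatory domains. A sequence-specific factor typically gives a narrow *ChIP-seq* peak, so a stretch of kilobases is an unusual shape for such a factor.

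Most wide regions were only a little over 2 kb. Their median width was 2387 bp (quartiles 2165 and 2873.5 bp) and the widest measured 27528 bp. By width, 649 regions (58.4%) lay below 2.5 kb and 223 between 2.5 and 3 kb. A further 165 measured 3 to 4 kb, 40 measured 4 to 5 kb, 33 measured 5 to 10 kb, and 1 was over 10 kb. Together they spanned 3.01 Mb, or 1.81% of the 165.8 Mb under all merged *E2F1* regions. They held 10055 deposited peaks, 1.47% of the 684606 peaks on these chromosomes. The peaks inside them had a median width of 503 bp, against 253 bp over all peaks. A wide region held a median of 8 peaks (quartiles 7 and 10, highest 111), while a shared region under 2 kb had a median width of 460 bp and 2 peaks.

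Wide regions were shared by most dogs. A peak was present in all 6 dogs in 548 regions (49.3%), in 5 dogs in 362, in 4 dogs in 145, in 3 dogs in 43 and in 2 dogs in 13. Among the 100973 shared regions under 2 kb, 2223 (2.2%) had a peak in all 6 dogs and 68487 (67.8%) in 2. More dogs add more peaks to a merged stretch, so width and number of dogs are tied by construction. Median width was 2229 bp for regions of 2 dogs and 2530 bp for regions of 6. The single stretch over 2 kb that failed the requirement for 2 dogs was 1 peak of ancestral dog 2 at chr8:63392319-63394380, 2062 bp wide with a fold enrichment of 7.98.

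The 2 kb limit did not fall at a break in the values. The 177 regions of 2.0 to 2.1 kb had a median of 7 peaks and 5 dogs, and 36.7% had a peak in all 6 dogs. The 251 shared regions of 1.9 to 2.0 kb also had a median of 7 peaks and 5 dogs, and 31.9% had a peak in all 6 dogs. The widest single peak in them had a median width of 1595 bp just above the limit and 1438 bp just below it. A limit of 1.5 kb gave 3068 regions, one of 3 kb gave 239, and *E2F1* peaks with q below 1e-10 alone gave 389 regions of 2 kb or more.

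Joining across dogs made most of the regions wide. In 445 regions (40.1%) at least 1 dog had a single peak of 2 kb or more, and the other 666 reached 2 kb only through peaks joined together. A single peak of that length was present in 1 dog in 334 regions, in 2 or more dogs in 111, and in all 6 dogs in 3, at chr1:2740-7285, chr7:80959448-80964869 and chr32:38804420-38808528. Counted base by base, 30.1% of the wide sequence lay under a peak of 1 dog, 27.1% of 2 dogs and 18.2% of 3. Peaks of 4 dogs lay over 11.5%, of 5 dogs over 8.67% and of all 6 over 4.52%. In 296 regions at least 1 base pair was under a peak in every dog, and in 351 regions 2 kb or more was under peaks of at least 2 dogs.

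The dogs contributed unequally. Of the 1111 regions, ancestral dogs 1, 2 and 3 had a peak in 935, 1051 and 1074, and derived dogs 1, 2 and 3 in 732, 1108 and 933. The share of wide base pairs under a dog's own peaks was 34.3%, 51.7% and 50.8% for ancestral dogs, against 17.3%, 74.5% and 26.5% for derived dogs. Derived dog 2 was the highest and derived dog 1 the lowest, and the ancestral dogs lay between them. Single peaks of 2 kb or more numbered 56, 133 and 93 for ancestral dogs, against 32, 329 and 11 for derived dogs. Derived dog 2 also had the longest *E2F1* list, with 160157 peaks on these chromosomes, and the rule found 491 regions when both of its lists were left out. The other lists held 86634, 84014 and 130535 peaks in the ancestral dogs and 107268 and 115998 in derived dogs 1 and 3. Sequencing depth is not given in the peak lists. The study's supplement lists *ChIP-seq* library statistics, which were not used here, and the part of depth in these differences was not tested.

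Peaks in wide regions ranked high within each dog's own list. Fold enrichment, which the authors' peak caller gives over local background, had a median of 4.87, 5.27 and 5.79 in ancestral dogs 1 to 3. The median was 3.98, 5.78 and 4.91 in derived dogs 1 to 3. Over all peaks of the same lists the medians were 4.22, 4.27 and 3.94, then 3.9, 3.94 and 3.98. By q value, the median peak in a wide region stood at percentile 81.2, 85.9 and 88.4 of its list for ancestral dogs, against 73.1, 93.6 and 82.5 for derived dogs. The highest fold in any wide region was 30.3, and none of the 121 peaks over 100-fold on these chromosomes lay in a wide region. The strongest peak of a region over the 6 lists, which were not normalized to each other, had a median fold of 9.53 (quartiles 7.39 and 12.8).

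The widest region, chr26:31268300-31295827, stood far apart from the rest in length. It joined 111 peaks, of which ancestral dogs 1 to 3 gave 12, 12 and 27 and derived dogs 1 to 3 gave 16, 20 and 24. Peaks covered 79%, 79.1% and 58.8% of it for ancestral dogs, against 82.1%, 71.5% and 43.5% for derived dogs, so the region did not rest on a single dog. All 6 dogs together covered 4560 bp of it. Its longest single peak, 6155 bp, came from derived dog 1, the dog with the least *E2F1* cover over wide regions as a whole. No dog had an *H3K27ac* peak anywhere in it. A neighbour, chr26:31297941-31302664 (4724 bp), had peaks in all 6 dogs and no *H3K27ac* either.

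In the next 3 regions by width, *E2F1* cover differed widely between dogs. The next widest region, chr1:110084539-110094419, was 9881 bp long and was covered end to end by 1 peak of derived dog 2. In ancestral dogs 1 to 3 the peaks covered 30.1%, 27.3% and 80.9% of it, and in derived dogs 1 and 3 they covered 7.35% and 25.1%. *H3K27ac* peaks of all 6 dogs overlapped that region, covering 3.86% to 27.9% of it, and in none did they reach its midpoint. The region chr20:48615464-48624559 (9096 bp) was likewise covered to 94.5% in derived dog 2 and 3.83% in derived dog 1, and *H3K27ac* lay over its midpoint in derived dog 2 only. At chr7:6653521-6662214 (8694 bp) *E2F1* peaks covered 94.4% in derived dog 2 and 10% to 41.2% in the other dogs. The *H3K27ac* peak at that midpoint was 21544 bp long in derived dog 2 and between 2592 and 4047 bp in the other dogs.

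The other regions among the 10 widest that carried *H3K27ac* differed in how the mark lay over them. At chr26:23419801-23427608 (7808 bp) the longest *E2F1* peak, 6538 bp, was in ancestral dog 2, and the *H3K27ac* peak at the midpoint measured 16688 to 19391 bp over the 6 dogs. At chr17:59745460-59752579 (7120 bp) *E2F1* cover was 94.5% in derived dog 2 and 8.82% to 48.6% elsewhere, with *H3K27ac* peaks of 12791 to 23541 bp. The region chr27:2947819-2955576 (7758 bp) had *E2F1* peaks in 6 dogs and *H3K27ac* in 5, none of them at the midpoint. The region chr7:41708622-41715139 (6518 bp) had *E2F1* peaks in 4 dogs, with none in derived dogs 1 and 3, while *H3K27ac* covered 58.5% to 77.8% of it in each dog and missed the midpoint in all 6.

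The regions with the best q values in every dog had low fold enrichment. Ranked by the lowest percentile among the 6 lists, the first was chr1:2740-7285, 4546 bp wide. Its highest −log10 q was 1937.8, 928.9 and 680.7 for ancestral dogs 1 to 3, with 3198.3, 1106.6 and 780.4 for derived dogs 1 to 3. Its fold was 2.94, 2.82 and 3.64 for ancestral dogs, against 3.14, 2.39 and 3.51 for derived dogs, below the median of each dog's own list. The next were chr32:38804420-38808528, chr6:4433-6595, chr34:3084-6151 and chr7:80959448-80964869, with highest folds of 2.28, 3.22, 4.19 and 3.06. Peaks covered 90.8% to 99.6% of the first region over the 6 dogs and 62.5% to 99% of the CFA34 region. At chr32:38804420-38808528 each dog had a single peak, of 3997 to 4109 bp. *H3K27ac* was called in 4 dogs at the first, in 1 at the CFA32 region, in 3 at the CFA6 region and in none at the CFA34 and CFA7 regions. Over all wide regions, 11 had a −log10 q above 100, of which 6 lay within 1 Mb of the first base or of the last peak of a chromosome. Those 6 had highest folds of 2.28 to 4.21, and the other 5 had highest folds of 25.1 to 30.3.

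Wide regions were spread unevenly over the chromosomes. CFA20 had the most per Mb, with 117 regions or 2.01 per Mb of the length up to its last peak, against 0.504 per Mb over all 38 chromosomes. CFA9 followed with 114 (1.87 per Mb) and CFA18 with 63 (1.13 per Mb). CFA36 had none, and CFA19 and CFA29 had 1 each. The 5 chromosomes with the most wide regions held 482 of them (43.4%) on 18.5% of the length, and 28.7% of the shared regions. Relative to *E2F1* regions of any width, CFA20 had 22.2 wide regions per 1000 shared regions, CFA18 17.8, CFA9 17 and CFA1 17, and the figure over all chromosomes was 10.9. Across the 38 chromosomes, wide regions per Mb rose with the percent of the chromosome under *H3K27ac* peaks (Spearman's rho 0.79), and wide regions per 1000 shared regions did so with a rho of 0.58. These are descriptions over chromosomes that share the same 12 lists.

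Pooled over chromosomes, the outer parts held more wide regions than the middle. With each chromosome split into 10 equal parts, the first held 155 wide regions (14%), the ninth 178 (16%) and the last 212 (19.1%), and the parts between held 71 to 95 each. For shared regions under 2 kb the first, ninth and last parts held 11.9%, 11.3% and 14%. The counts pool all chromosomes, so chromosomes with dense stretches weigh most. On CFA18, the stretch from 51 to 52 Mb alone put 20 wide regions into the last part. On CFA20, the stretch from 49 to 50 Mb put 16 into the ninth. Whether single chromosomes show the same pattern was not tested. Within 1 Mb of the first base of a chromosome there were 54 wide regions (4.86%), against 2.57% of narrower shared regions. Within 1 Mb of the last peak the shares were 1.89% and 2.76%.

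Many wide regions lay close to each other. Neighbours on a chromosome were a median of 147.2 kb apart, and 193 of 1074 gaps (18%) were shorter than 10 kb. Regions separated by less than 10 kb formed 135 runs that held 328 regions (29.5%), and 36 runs had 3 or more. Gaps and runs of narrower shared regions were not computed, so these values describe wide regions alone. In 1 Mb windows, 425 of 2220 windows held a wide region, and 68 windows with 5 or more held 45.7% of all. Those 68, which are 3.06% of the windows and were picked by their wide regions, also held 20.4% of shared regions of 1 to 2 kb and 11.6% of all shared regions under 2 kb. The fullest was CFA18 from 51 to 52 Mb with 20 regions, followed by CFA5 from 32 to 33 Mb with 18 and CFA20 from 49 to 50 Mb with 16. These windows were crowded with narrower shared regions too, at 192, 222 and 191, against 45.8 per Mb overall. *H3K27ac* was present in every dog in all 20 regions of the CFA18 window, 15 of the 18 on CFA5 and all 16 on CFA20. In the CFA20 window from 57 to 58 Mb it was so in 4 of 12. The run with the most members, 8 regions at chr27:13139864-13181666, had no *H3K27ac* peak in 7 of the 8. The run at chr26:28858729-28884994 had 5 regions, and none carried *H3K27ac* in any dog. By contrast, the 7 regions at chr18:51746145-51777718 and the 5 at chr1:112095124-112129044 carried *H3K27ac* in every dog.

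Most wide *E2F1* regions touched acetylated chromatin in every dog. An *H3K27ac* peak with q below 0.05 overlapped 909 of the 1111 (81.8%) by at least 1 bp in all 6 dogs, against 35.9% of shared regions and 18.7% of all merged *E2F1* regions. No dog had *H3K27ac* in 79 regions (7.11%), where the background over shared regions was 36.9% and the share of those of 1 to 2 kb was 12.2%. Between these extremes, 28 regions had *H3K27ac* in 1 dog, 24 in 2, 19 in 3, 21 in 4 and 31 in 5. A longer region meets a peak more easily, and 69% of shared regions of 1 to 2 kb were overlapped in all 6 dogs. The share did not climb with width among the wide regions themselves, at 83.5% below 2.5 kb, 80.3% at 2.5 to 3 kb, 80% at 3 to 4 kb, 75% at 4 to 5 kb and 78.8% at 5 to 10 kb. By number of dogs with an *E2F1* peak it was 92.3% for 2 dogs (12 of 13 regions), 72.1% for 3, 78.6% for 4, 83.7% for 5 and 81.9% for 6.

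To compare widths without that effect, *H3K27ac* was read at the midpoint of each region. The midpoint of a wide region lay in an *H3K27ac* peak of the same dog in 64.9%, 55.6% and 64.5% of regions for ancestral dogs 1 to 3, with 58.4%, 74.5% and 59.6% for derived dogs 1 to 3. For shared regions under 2 kb the values were 45.3%, 35.3% and 40.9%, then 40.8%, 46.3% and 40.5%. Every dog was read over the same merged regions, which the *E2F1* peaks of all 6 dogs made. The sign-flip tests of midpoints and lengths thus measure agreement between *H3K27ac* lists over fixed regions. Wide regions were higher in 6 of 6 dogs, by 21.4 percentage points ± 3.89 (SD, n = 6; exact two-sided sign-flip test, p = 0.031, adjusted p = 0.047 over 3 tests, where 0.031 is the smallest p possible). Against shared regions of 1 to 2 kb alone, the difference shrank to 1.08 points ± 1.41 (SD, n = 6; exact sign-flip test, p = 0.125), positive in 5 dogs. With *E2F1* peaks in all 6 dogs required of both classes, an alternative chosen after seeing the data, it was 3.23 points. At q below 0.0005, the limit for *E2F1* peaks in the methods of the study, it was 11.2 points, and at q below 1e-10 it was 3.2 points. Requiring 3 dogs gave 10.6 points. The midpoint lay in *H3K27ac* of all 6 dogs in 571 wide regions (51.4%), where the background over shared regions was 28.9%, and of no dog in 267 (24%), where it was 43.3%. For shared regions of 1 to 2 kb these shares were 48.8% and 24.7%, close to those of wide regions.

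The *H3K27ac* peaks at midpoints of wide regions were longer than those at midpoints of narrower shared regions. The median length of the peak at the midpoint was 8406, 6252 and 7020 bp for ancestral dogs 1 to 3, with 7233, 9403 and 7563.5 bp for derived dogs 1 to 3. At midpoints of shared regions under 2 kb it was 5303, 4469 and 4974 bp, then 4810, 6001 and 5314 bp. The difference was 2501.1 bp ± 627.1 (SD, n = 6), positive in 6 of 6 dogs (exact two-sided sign-flip test, p = 0.031, adjusted p = 0.047). Against shared regions of 1 to 2 kb it was 1874.9 bp ± 364.6 (SD, n = 6), again positive in 6 of 6 dogs (exact sign-flip test, p = 0.031). With *H3K27ac* peaks at q below 1e-05 the difference from all shared regions under 2 kb was 1061.9 bp, and with 1.5 kb as the limit for wide regions it was 1614.3 bp. A long peak is more likely to hold a given point, in every class of region, so the lengths are compared between midpoints and not with the whole list. By fold enrichment, the peaks at wide midpoints stood at percentile 94.8 ± 0.85 of the dog's own *H3K27ac* list (mean of dog medians, SD, n = 6). Those at midpoints of shared regions of 1 to 2 kb stood at 90.7 ± 0.989, and of all shared regions under 2 kb at 84.1 ± 0.825 (SD, n = 6).

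Merging the *H3K27ac* peaks of all dogs gave the acetylated domains in which wide regions lay. Of the 1111 midpoints, 844 (76%) fell in such a domain, against 75.3% of midpoints of shared regions of 1 to 2 kb and 56.7% of all shared regions. The median length of the domain was 12423.5 bp (quartiles 6038 and 23021.5 bp). The domain was called in all 6 dogs for 806 of the 844 (95.5%) and was 10 kb or longer for 495 (58.6%). At midpoints of shared regions of 1 to 2 kb the median domain was 9148 bp, 92.5% were called in all 6 dogs and 47% reached 10 kb. At midpoints of all shared regions under 2 kb the median domain was 7497.5 bp, 81.7% were called in all 6 dogs and 40.8% reached 10 kb. The 844 wide regions fell in 753 separate domains, and 73 domains held 2 or more of them. The domain at chr18:51729037-51768549, 39513 bp long, held 5. The longest, chr15:15704980-15811935 (106956 bp), held the wide region chr15:15716079-15719192.

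Acetylation was also frequent around the wide regions. Each point was read on its own, so the peak at a distant point need not be the one at the region. Averaged over dogs, 65.2% ± 4.96 (SD, n = 6) of regions had *H3K27ac* at the point 5% across them, 62.9% ± 6.72 at the midpoint and 65.2% ± 5.09 at 95%. The share was 58.1% at 1 kb before the start and 57.9% at 1 kb after the end. At 10 kb it was 44.6% before and 41.6% after. Around shared regions of 1 to 2 kb the shares were 61.9% at the midpoint, 51.2% and 52.2% at 1 kb, and 37.3% and 37% at 10 kb. At 10 kb from shared regions under 2 kb as a whole they were 27.8% and 27.6%.

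In some wide regions acetylation flanked the middle. Both ends, but not the midpoint, lay in *H3K27ac* of the same dog in 8.52% ± 1.31 of wide regions (SD, n = 6), and in 1.19% ± 0.227 of shared regions of 1 to 2 kb. Ancestral dogs 1 to 3 had 106, 101 and 88 wide regions of this kind and derived dogs 1 to 3 had 105, 68 and 100. Both ends and the midpoint were acetylated in 40.2% ± 6.95 (SD, n = 6), 1 end in 31.6% ± 2.87, and none of the 3 points in 16.1% ± 3.27. A gap of a given length fits more readily between the ends of a longer region, and the comparison was not tested. In 126 wide regions (11.3%) *H3K27ac* overlapped the region in all 6 dogs and covered the midpoint in none, against 5.87% of shared regions of 1 to 2 kb. Those 126 had a median highest *E2F1* fold of 11.5, and the 571 with an acetylated midpoint in all 6 dogs one of 9.6. Their median widths were 2379.5 and 2364 bp. The 126 had *E2F1* peaks in all 6 dogs in 58.7% of regions and the 571 in 46.6%. The highest fold is a maximum over dogs, so the 2 folds are not matched for the number of dogs.

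The 79 wide regions without *H3K27ac* in any dog had another *E2F1* pattern. Their median width was 2510 bp, and 64.6% had *E2F1* peaks in all 6 dogs, compared with 2384 bp and 49.4% for the 909 regions with *H3K27ac* in every dog. A single peak of 2 kb or more was present in 57% of them and in 38.7% of the 909. The highest fold in a region had a lower median, 6.4 against 9.91. *E2F1* peaks covered 58.2%, 57.6% and 49.4% of their base pairs for ancestral dogs 1 to 3, with 61.8%, 67% and 37.8% for derived dogs 1 to 3. Over the 909 acetylated regions the same dogs covered 32.1%, 51.7% and 51.7%, then 12%, 75.4% and 25.4%. By base pairs, derived dog 1, the lowest in the acetylated regions, was the next highest after derived dog 2 in the regions without *H3K27ac*. By regions with a peak, derived dog 1 was the lowest there too, with 66 of the 79. Base pairs give most weight to the widest regions, such as the CFA26 region of 27528 bp, which derived dog 1 covered to 82.1%. Runs of neighbours on CFA27 and CFA26 gave 7 and 5 of the 79. Single peaks of 2 kb or more in the regions without *H3K27ac* numbered 23, 23 and 7 for ancestral dogs 1 to 3, with 23, 22 and 1 for derived dogs 1 to 3. In the acetylated regions they numbered 21, 90 and 80, then 2, 271 and 5.

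Regions without *H3K27ac* were also placed differently. Of the 79, 28 (35.4%) lay within 1 Mb of the first base or the last peak of a chromosome, compared with 2.97% of the 909. At the first base there were 25 of these 28. The share was not computed for narrower shared regions without *H3K27ac*, so this placement cannot be called particular to wide regions. CFA6 held 9, CFA26 and CFA27 held 7 each, and CFA13 held 6. The nearest *H3K27ac* peak of any dog was a median of 3946 bp away and at most 76367 bp. After the CFA26 region of 27528 bp, the widest were chr26:28863482-28872062 (8581 bp) and chr27:13157719-13166284 (8566 bp). Then came chr7:80959448-80964869 (5422 bp) and the CFA26 neighbour of 4724 bp. At chr27:13157719-13166284 *E2F1* peaks covered 99.1%, 86.3% and 88.2% of the region for ancestral dogs, against 97.4%, 89.7% and 42.6% for derived dogs, with folds of 3.81 to 6.37. At chr26:28863482-28872062 the cover was 70.5%, 81.4% and 61.8%, then 81.1%, 64.3% and 39.1%. By the study's methods, the authors kept reads that map to several places at alignment. When duplicates were removed, a uniquely aligned read was preferred over its duplicates with several alignments. The part of repeated sequence in these regions was not tested, since no CanFam3.1 sequence was used here. The peak calling settings in the study's methods name no input control, and sites enriched in input DNA were taken out by the authors only in a later differential analysis. The deposited lists were used here as they stand, and enrichment of these regions in input was not tested.

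The study set out to compare dogs with and without the TE insertion. *H3K27ac* peaks covered 65.3%, 56.8% and 64.3% of the wide base pairs for ancestral dogs, against 60%, 72.9% and 60.8% for derived dogs, so the genotypes overlapped. The means were 62.1% ± 4.64 (SD, n = 3) and 64.6% ± 7.26 (SD, n = 3). The difference, derived minus ancestral, was 2.44 percentage points (exact two-sided permutation test, p = 0.8, adjusted p = 0.8), in a design of 3 against 3 dogs whose smallest possible p is 0.1. The sign turned when ancestral dog 2 (-0.353 points) or derived dog 2 (-1.62 points) was left out. Derived dog 2 also weighed on which regions were compared, since the rule found 491 regions without it. No wide region had *H3K27ac* in all 3 derived dogs and no ancestral dog, where the background over shared regions was 0.196%. None showed the opposite pattern either, with a background of 0.101%. Over shared regions of 1 to 2 kb the shares were lower, 0.0691% (6 of 8689) and 0.046% (4), so a count of 0 among 1111 is near what those regions show. *E2F1* peaks were present in all 3 derived dogs and no ancestral dog in 1 wide region, chr10:1288329-1290636, which had *H3K27ac* in all 6 dogs, and in all 3 ancestral and no derived dog in 0. The shares over shared regions were 0.877% and 0.55%. These last counts rest on the values that chose the regions. *E2F1* cover of wide base pairs averaged 45.6% ± 9.8 in ancestral and 39.4% ± 30.7 in derived dogs (SD, n = 3 each), and the spread among the derived dogs was larger than the difference.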

How the data were processed

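*E2F1* narrow and *H3K27ac* broad peak lists of 6 dogs were used. The submitters' processing notes name bcl2fastq 2.17, Trim Galore 0.0.6, Bowtie 1.1.2, deepTools 3.5.1, MACS2 2.2.0 and CanFam3.1. The study's methods name another aligner, bowtie2, and the sources differ on this. By those methods the authors kept reads that map to several places at alignment. They dropped duplicates, with a preference for the uniquely aligned read, and made the calls dog by dog. The deposited score column ranks peaks and was not used. The deposited fold enrichment is a ratio over local background, and −log10 of p and of q stand in the deposited columns as the caller wrote them. The deposited lists were not normalized between dogs, so percentiles and medians of fold and q were taken within a list. The highest fold or q of a region is a maximum over dogs and describes the lists as deposited. The depth behind a peak is not given in the lists, so no counting interval was computed. Input libraries were not analysed here. The calling settings in the study's methods name no input control, and the authors removed input-enriched sites in a later step that was not repeated here.

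Every deposited *E2F1* peak on chromosomes 1 to 38 was merged where peaks overlapped or touched, and *H3K27ac* peaks needed q below 0.05. The study's own limit for *E2F1*, q below 0.0005, is met by 17.7% to 49% of the peaks of a deposited list and was an alternative. Coordinates are 1-based. Chromosome length was taken as the highest peak end in the lists. Genotypes and replicate numbers came from the sample labels, and the same animal gave both lists of a dog. Dogs were the unit of each exact test (64 sign assignments or 20 group assignments), with Benjamini-Hochberg adjustment over 3 tests. Merging, overlap and tests were tested on simulated data. Python 3.11.15, numpy 2.4.6, pandas 2.3.3 and scipy 1.17.1 were used.

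Regions named were the 10 widest, the 5 of 6 dogs with the highest lowest percentile by q, the 5 widest without *H3K27ac*, and the chromosomes with the most and fewest per Mb. Other regions, chromosomes and the −log10 q limit of 100 were picked after their values were seen. The members and lists were chosen with earlier results of these data known. Gene names, motifs, E2F target genes and cell type markers were not analysed here. Alternatives changed the q limits, width, number of dogs, merging, comparator, overlap and dogs included.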

Additional observations from a re-analysis of the deposited data

Results flagged for a closer look

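Chromosome X lay outside the rule, and the same steps found 19 wide *E2F1* regions there, a signal in sequence that the comparisons did not use. They amount to 0.153 per Mb up to the last peak, fewer than the 0.504 per Mb of chromosomes 1 to 38. Relative to shared regions of any width the shares were close, at 19 of 1854 on X and 1111 of 102084 on chromosomes 1 to 38. *H3K27ac* was present in all 6 dogs in 13 of the 19 (68.4%), against 607 of the 1854 shared regions on X (32.7%). The 3 widest lay side by side, at chrX:49669620-49684103 (14484 bp), chrX:49687519-49701506 (13988 bp) and chrX:49701883-49724648 (22766 bp), with *E2F1* peaks in 6 dogs and *H3K27ac* in 1. Their longest single peaks measured 12473, 12792 and 10665 bp, and each of those exceeds the longest single peak in a wide region on chromosomes 1 to 38, 9881 bp. Ancestral dogs 1 to 3 had a peak in 15, 19 and 19 of the regions on X and derived dogs 1 to 3 in 15, 19 and 18. Why they are wide was not tested.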

How the results depend on the processing

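The number of wide regions depended on the settings. It was 389 with *E2F1* peaks at q below 1e-10, 3068 from 1.5 kb, 239 from 3 kb and 445 where a single peak of 2 kb was required. Leaving out single dogs gave 491 (without derived dog 2) to 1032, and the number stayed within 1.5 times 1111 under the 4 other settings, 857 at q below 0.0005, the limit in the study's methods, included.

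The midpoint difference stayed positive under all 19 alternatives. It was 1.08 points against regions of 1 to 2 kb (exact sign-flip test, p = 0.125), 3.2 at q below 1e-10, 11.2 at q below 0.0005 and 10.6 with 3 dogs required. The *H3K27ac* length difference stayed positive under all 18, from 1061.9 to 2978.1 bp. With 1 dog left out the differences were 14.9 to 20.3 points and 2200.5 to 2642.8 bp, where 5 dogs cannot give an exact p below 0.0625.

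The share of wide regions with *H3K27ac* in all dogs was 78.8% from 1.5 kb, 78.7% from 3 kb, 79.1% with a single 2 kb peak and 73.8% with *H3K27ac* at q below 1e-05. It was 52.4% with 50% of the region covered and 79.2% to 83.3% with 1 dog left out. Under alternatives chosen after seeing the data it was 85.1% without regions within 1 Mb of a chromosome end and 51.4% with the midpoint in *H3K27ac*. The causes were not tested.

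The genotype difference in *H3K27ac* cover was 2.17 to 2.79 points under 10 settings and -1.62 to 4.86 with 1 dog left out, reversed without ancestral dog 2 (-0.353) and derived dog 2 (-1.62). With the replicate number as a block it was 2.44 points (exact sign-flip test over 3 pairs, p = 1, smallest possible p 0.25). Deviations of same-numbered dogs over wide regions correlated at 0.0627, -0.322 and -0.0935. Those of differently numbered dogs correlated at -0.24 to 0.269. These few values cannot decide whether same-numbered dogs were handled together, and the labels name no batch.

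Peak lists hold no reads, so an absent peak is not an absence of binding. From the peak lists alone, depth and *E2F1* binding cannot be told apart in a dog with fewer or shorter peaks. Merged width grows with the number of dogs. Genes, repeats and base composition of the regions were not analysed here. With 3 dogs per genotype an exact permutation test between genotypes cannot pass 0.05.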
